A study of Mus musculus with 12 samples.

Results

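let-7d-5p and let-7e-5p are microRNAs of the same family, and synthetic mimics of each were put into mouse white adipocytes. The comparison described here sets the 4 let-7d mimic libraries against the 4 let-7e mimic libraries, which are 8 of the 12 RNA-seq libraries of the study. The other 4 libraries come from cells given a negative control, whose sequence is not given in the sources used here. Libraries were chosen by their titles and not by any measured value. The question is what differs in the transcriptome between 2 microRNAs that share a seed.

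All 3 groups started from stromal vascular cells of epididymal fat (eWAT) of male C57BL/6 mice, WT, 8 weeks of age and fed chow. The cells were grown with 20% serum and induced to become adipocytes with rosiglitazone (1 µM), insulin (850 nM), dexamethasone (1 µM) and IBMX (250 µM), after which the medium held rosiglitazone, insulin and 10% serum. Mimic or control was delivered by reverse transfection with Lipofectamine RNAiMAX 4 days after induction, and cells were harvested at day 7. Every group, the control included, therefore carries the transfection and rosiglitazone. The dose of mimic is not given in the labels, and the amount of mimic in the cells was not measured in these data. Besides precursors of fat cells, the stromal vascular fraction of fat contains cells of vessels and of the immune system.

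A microRNA guides an Argonaute protein to messages that carry a match to its seed, the stretch near its 5′ end, mostly in the 3′ UTR, and the message is then repressed and shortened in its tail. The let-7 family is known for holding down growth and developmental genes such as Hmga2 and the Ras genes. Its members share the seed and differ in the bases behind it, where extra pairing can favour a particular member at a particular site. A guide paired over most of its length can also lead Argonaute 2 to cut the message.

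The mature sequences are shown with the seed, bases 2 to 8 counted from the 5′ end, in capitals (RefSeq, GRCm38.p6). let-7d-5p lies at chr13:48536078-48536099 on the minus strand and let-7e-5p at chr17:17830366-17830387 on the plus strand.
let-7d-5p: aGAGGUAGuagguugcauaguu
let-7e-5p: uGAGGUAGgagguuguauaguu
The seeds are identical. From let-7d to let-7e the 22 bases differ by A1U, U9G and C16U, with positions counted from 1 at the 5′ end. The same sequences with those positions in capitals show where the molecules differ.
let-7d-5p: AgagguagUagguugCauaguu
let-7e-5p: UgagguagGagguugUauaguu

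5 of the genes that differed between the mimics carry a stretch complementary to 1 mimic over at least 10 bases and to the other over fewer. They are shown because the mimics pair with them to different extents. Each line is 26 bases of the message in the 5′ to 3′ direction, ending opposite mimic base 1, with the contiguous complement in capitals (GENCODE vM21 transcripts, GRCm38.p6).
P2rx4, coding sequence, let-7e bases 1 to 13: ccccaacattaccACCTCCTACCTCA
Inpp5k, coding sequence, let-7e bases 5 to 15: ctccagtgtacCAACCTCCTACttct
Odf2, coding sequence, let-7e bases 3 to 12: tgctccctatacatCCTCCTACCTga
Ell, coding sequence, let-7d bases 6 to 16: ctcaggctgaGCAACCTACTAgctcc
Apba1, 3′ UTR, let-7d bases 2 to 14: ggagtccagagtAACCTACTACCTCc
They lie at chr5:122725002-122725027, chr11:75645509-75645534, chr2:29930598-29930623, chr8:70585873-70585898 and chr19:23948865-23948890, in the same order, each within 1 exon and on the plus strand. All 5 stretches span position 9, where the mimics differ.

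The deposited counts held between 15186066 and 25376823 reads per let-7d library and between 19917364 and 33396316 per let-7e library. The libraries carry 2 series of sample identifiers, called run 1 and run 2 here, with 2 libraries of each group in each. What the series stand for is not stated, and they stood apart: summed levels of 23 adipocyte genes in CPM (normalised counts) lay between 26532 and 28901 in the 6 libraries of run 1 and between 6013 and 8376 in the 6 of run 2. Each run holds all groups, so values are given by run and the fit has a run term. Defining adipocyte genes were present in every library. let-7d replicate 3 stood apart in macrophage markers, as given below. Separate cultures or mice are not stated for the replicates, and p-values here therefore reflect how much these libraries vary, which may be technical.

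Few genes told the mimics apart. Of 15754 genes tested, 24 differed between let-7d and let-7e (0.152%) by edgeR's quasi-likelihood test at a Benjamini-Hochberg adjusted p under 0.05. 9 were higher with let-7d (0.0571%) and 15 higher with let-7e (0.0952%). In all 24, both let-7d libraries lay on 1 side of both let-7e libraries in each run, an order that 845 genes (5.36%) showed upwards and 1181 (7.5%) downwards over the whole table. The differences were small, with 17 of the 24 under 0.5 on the log2 scale. 1467 genes (9.31%) had an unadjusted p under 0.05.

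For most messages the interval of the mimic difference was narrow. Like the p-values, it reflects how much these libraries vary, which may be technical. The 95% interval of the let-7d minus let-7e difference lay within 0.5 on the log2 scale for 11513 genes (73.1%). Among the 11345 genes whose log2 CPM averaged 2 or more it did so for 10844 (95.6%). Without the run term the count over all genes was 4775. The median difference over all genes was -0.0042 and the median standard error (SE) 0.084. No gene showed a mimic difference that itself differed between the runs in the edgeR interaction test (735 at unadjusted p under 0.05, with 0 called by limma-voom and 2 by DESeq2).

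**Figure D1:**
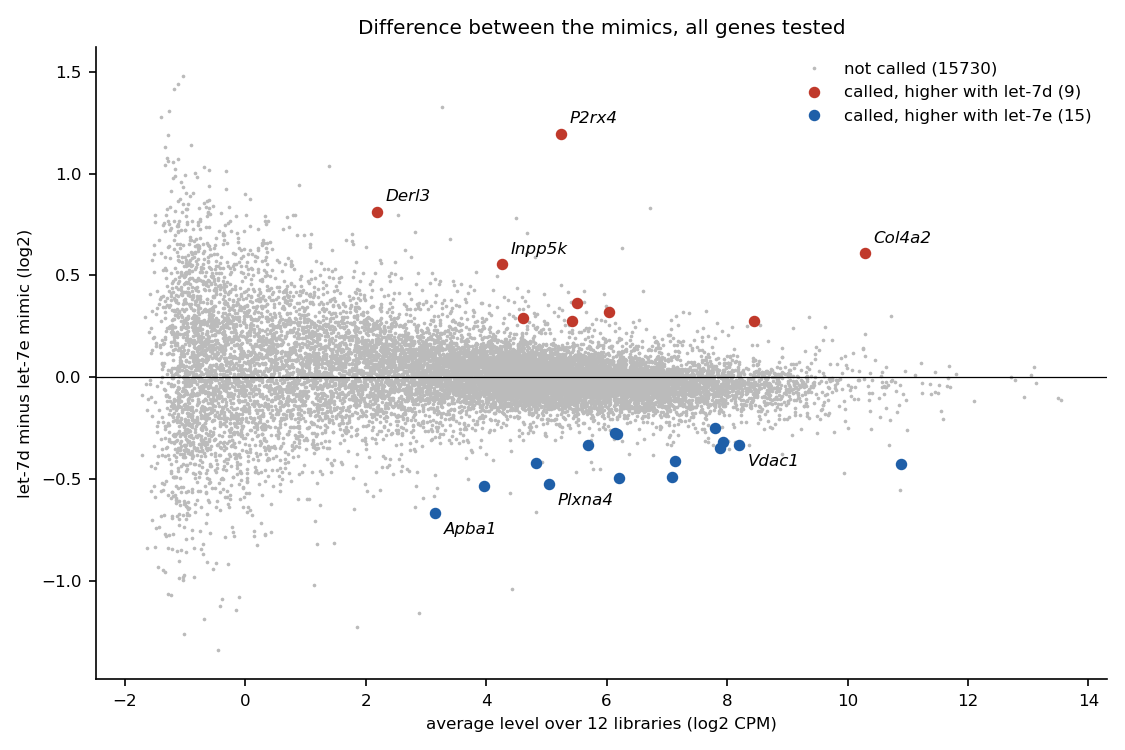
Difference between the mimics (let-7d minus let-7e, log2) against average log2 CPM for each gene tested, with called genes in colour, red for the 9 higher with let-7d and blue for the 15 higher with let-7e. P2rx4 stands alone above 1 among the called genes, and the spread of uncalled genes widens at low levels.

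The number called moved with the test, the model and the libraries. DESeq2 called 122 genes and the fit to the 8 mimic libraries alone 98, each including all 24, while 5 were called with the replicate number as a block in place of the run term. 3 genes, P2rx4, Col4a2 and Inpp5k, were called when any 1 of the 12 libraries was left out. Without let-7d replicate 1, 2 or 4, or let-7e replicate 2 or 3, these were the 3 called. Without let-7e replicate 1 and let-7d replicate 3 there were 4 and 7, and without control replicate 4 and control replicate 3 there were 35 and 38, again including all 24. Without the run term P2rx4 alone was called.

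P2rx4 encodes an ATP-gated cation channel of the purinergic receptor family, known from macrophages and microglia and found at the plasma membrane and on lysosomes. Of all genes tested it had the smallest p between the mimics. With let-7d its level was 52.4 and 53.5 CPM in run 1 and 46.4 and 44.5 CPM in run 2. With let-7e it was 23.5 and 22.2 CPM in run 1 and 19.7 and 20.4 CPM in run 2. The 4 let-7d libraries lay far above the 4 let-7e libraries, whichever run they came from. The control libraries, at 49.3 and 49.7 CPM in run 1 and 38.6 and 37.7 CPM in run 2, were on the side of let-7d.

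The means were 49.2 ± 4.42 CPM (SD, n = 4) with let-7d and 21.4 ± 1.73 CPM (SD, n = 4) with let-7e. The difference was 1.20 ± 0.053 on the log2 scale (SE, 95% interval 1.08 to 1.31, edgeR adjusted p = 2.38e-09). It was 1.21 in run 1 and 1.18 in run 2. It was called in all 11 alternative analyses and all 12 with a library left out, between 1.17 and 1.22. Against control, P2rx4 fell by 1.02 on the log2 scale with let-7e and rose by 0.18 with let-7d (edgeR adjusted p = 0.0269). The gene (ENSMUSG00000029470.15) spans chr5:122707544-122729738.

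The P2rx4 message has no CTACCTC or TACCTCA in its 3′ UTR of 1425 bases. These are the DNA letters of the match to bases 2 to 8, and of the match to bases 2 to 7 followed by A. Its site is in the coding sequence and pairs without a gap with let-7e over 13 contiguous bases and with let-7d over 7. Over the full 22 positions, counted as complementary bases with base 1 included, 19 pair with let-7e and 16 with let-7d. No other coding sequence of the 13547 genes searched reached 19 pairs with let-7e while pairing less with let-7d. Macrophages express this channel, and in run 1 their markers summed to 493 and 469 CPM with let-7d and 529 and 350 CPM with let-7e. The median difference of the 18 markers was 0.15 in run 1 and 0.87 in run 2, higher with let-7d. In run 2 the sum was highest in let-7d replicate 3, and without that library the P2rx4 difference was 1.18. The part of macrophages in the P2rx4 result was not tested. Whether less P2rx4 message came from fewer cells or from less RNA per cell cannot be told apart in bulk RNA.

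Col4a2 encodes a chain of type IV collagen, the sheet-forming collagen of basement membranes. With let-7d it was at 1693 and 1648 CPM in run 1 and 725 and 863 CPM in run 2. With let-7e it was at 1089 and 1173 CPM in run 1 and 486 and 526 CPM in run 2. The run moved this gene more than the choice of mimic, yet within each run the groups did not overlap. Controls were higher than either mimic in run 1, at 2382 and 2571 CPM, and in run 2 they reached 863 and 957 CPM, next to let-7d.

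Col4a2 was higher with let-7d by 0.61 ± 0.079 on the log2 scale (SE, edgeR adjusted p = 0.00473), by 0.56 in run 1 and 0.65 in run 2. It fell with both mimics against control, by 0.39 with let-7d and by 0.99 with let-7e. The gene (chr8:11312805-11449287) holds 1 CTACCTC in its coding sequence and 1 TACCTCA in its 3′ UTR, which match the shared seed. Its longest stretch in the coding sequence was 7 bases with each mimic. In the 3′ UTR it was 7 bases with let-7d and 8 with let-7e. Endothelial cells also make this collagen. In run 1 their markers summed to 299 and 251 CPM with let-7d and 292 and 277 CPM with let-7e. In run 2 the sums were 287 and 193 CPM with let-7d and 181 and 207 CPM with let-7e. The median difference of the 8 markers was -0.07 in run 1 and 0.26 in run 2. The part of endothelial cells in the Col4a2 result was not tested.

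Inpp5k encodes a 5-phosphatase that acts on phosphoinositides and is known as a brake on insulin signalling. With let-7d it was at 21.9 and 22.2 CPM in run 1 and 23.5 and 24.4 CPM in run 2. With let-7e it was at 14.7 and 14.3 CPM in run 1 and 15.9 and 17.7 CPM in run 2. The 4 let-7d libraries lay above the 4 let-7e libraries, with the controls between them at 18.1 to 19.8 CPM. The difference was 0.55 ± 0.066 on the log2 scale (SE, edgeR adjusted p = 0.00211). Against control Inpp5k rose by 0.30 with let-7d and fell by 0.26 with let-7e.

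The Inpp5k site shown above skips the start of the seed. It pairs with let-7e over bases 5 to 15 and holds no CTACCTC. Counted over all 22 positions without a gap, that window pairs at 14 with either mimic. The gene spans chr11:75630988-75648871.

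**Figure D2:**
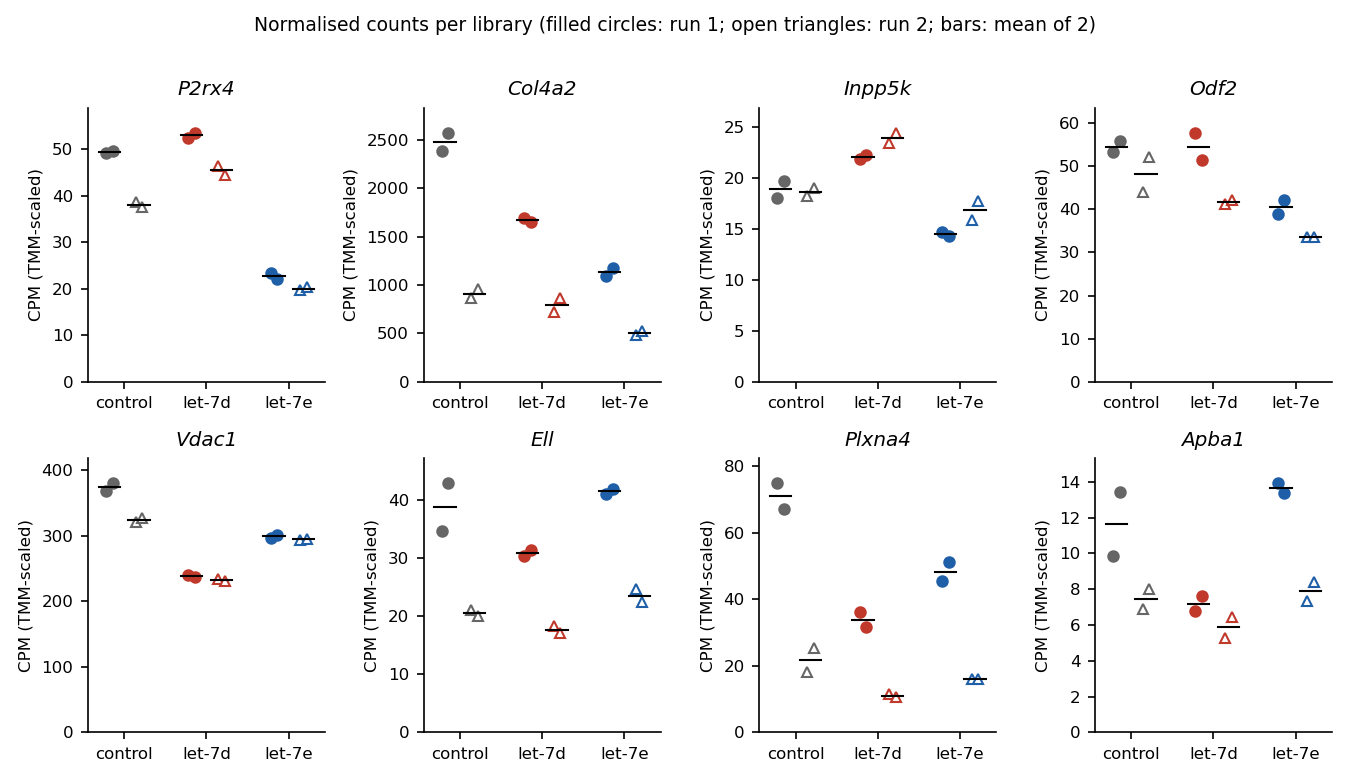
CPM (TMM-scaled) of 8 genes in each of the 12 libraries, with control in grey, let-7d in red and let-7e in blue, filled circles for run 1, open triangles for run 2 and a bar at the mean of the 2. P2rx4 lies between 44.5 and 53.5 CPM with let-7d and between 19.7 and 23.5 CPM with let-7e, and for Col4a2, Plxna4 and Ell the runs lie further apart than the mimics.

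6 more genes were higher with let-7d. Odf2, a protein of sperm tail fibres and of centriole appendages, was at 57.7, 51.4, 41.2 and 42.1 CPM with let-7d (replicates 1 to 4) and 39.0, 42.2, 33.6 and 33.6 CPM with let-7e. The difference of 0.37 ± 0.064 on the log2 scale (SE, edgeR adjusted p = 0.0394) showed in both runs, although across runs the groups overlap. Against control Odf2 fell by 0.47 with let-7e, and its difference with let-7d was -0.10. Its coding site pairs at 18 of 22 positions with let-7e and 15 with let-7d.

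Elmod2, which activates GTP hydrolysis by small GTPases of the Arf family, differed by 0.32, and fell by 0.35 against control with let-7e. Efemp2, or fibulin-4, which takes part in elastic fibre assembly, differed by 0.28. Blvrb, a biliverdin reductase, differed by 0.28 and Tmem106c by 0.29. Derl3, which takes part in removing misfolded proteins from the endoplasmic reticulum, had the largest of these differences (0.81) at the lowest level. It was at 10.8 and 12.6 CPM with let-7d against 6.4 and 5.5 CPM with let-7e in run 1. In run 2 it was at 1.8 and 2.1 against 1.1 and 1.7 CPM. Derl3 rose with let-7d against control by 0.71.

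The 15 genes higher with let-7e had a median difference of -0.41, written as let-7d minus let-7e. Vdac1, the pore protein of the outer mitochondrial membrane, was the most even of them. With let-7d it was at 240, 236, 234 and 231 CPM in replicates 1 to 4, and with let-7e at 297, 301, 294 and 295 CPM. The let-7d libraries lay below the let-7e libraries in both runs, and the runs hardly differed. The difference was -0.33 ± 0.049 on the log2 scale (SE, edgeR adjusted p = 0.0153). Vdac1 fell against control with both mimics, by 0.56 with let-7d and by 0.23 with let-7e. It was called in 8 of 11 alternatives and in 7 of 12 analyses with a library left out.

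Ell, an elongation factor of RNA polymerase II, was at 30.3 and 31.3 CPM with let-7d and 41.0 and 41.8 CPM with let-7e in run 1. In run 2 it was at 18.2 and 17.1 CPM with let-7d and 24.6 and 22.3 CPM with let-7e. The difference was -0.42 ± 0.067 on the log2 scale (SE, edgeR adjusted p = 0.0346). Ell fell by 0.27 against control with let-7d, and its difference with let-7e was 0.15. The coding stretch complementary to let-7d covers 11 bases, including positions 9 and 16, and pairs at 16 of 22 positions with let-7d and 14 with let-7e.

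Apba1, an adaptor that binds the amyloid precursor protein, was the scarcest of the 15. It was at 6.8 and 7.6 CPM with let-7d and 13.9 and 13.4 CPM with let-7e in run 1, and at 5.3 and 6.5 against 7.3 and 8.4 CPM in run 2. The mimics differed by -0.67 ± 0.125 on the log2 scale (SE, edgeR adjusted p = 0.0443), with -0.92 in run 1 and -0.42 in run 2. Apba1 fell by 0.50 against control with let-7d. Its 3′ UTR site is a seed match extended to 13 bases with let-7d and ending after 7 with let-7e.

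Several of the others act at the cell surface or in the matrix. Plxna4, a receptor for semaphorins, differed by -0.52 on the log2 scale, Olr1, the receptor for oxidised low-density lipoprotein, by -0.53, and Enpp1, an ectoenzyme that makes pyrophosphate, by -0.50. Loxl3, a lysyl oxidase-like enzyme that crosslinks collagen and elastin, differed by -0.49, and its let-7e replicate 3 stood above the rest.

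Enzymes make up most of the remainder. Bcat1, the cytosolic transaminase of branched-chain amino acids, differed by -0.41, and Asns, asparagine synthetase, by -0.32. Prdx6, a peroxiredoxin, differed by -0.35, Ptgs1, or COX-1, by -0.34, and Pofut1, which adds O-fucose to Notch, by -0.27. Nfatc3, a transcription factor switched on by calcineurin, differed by -0.28 and Mapre1, which tracks growing microtubule ends, by -0.25. Pofut1, Nfatc3 and Mapre1 fall outside the rule for named genes and were named after their values were seen.

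Each mimic was also set against control for these 24 genes. Of the 9 genes higher with let-7d, 6 were called lower than control with let-7e, while with let-7d 4 were called higher and 1 lower. Of the 15 higher with let-7e, 14 were called lower than control with let-7d and 2 (Vdac1 and Plxna4) with let-7e. Over all genes, let-7d was called against control at 2555 genes (16.2%), 1010 higher (6.41%) and 1545 lower (9.81%). let-7e was called at 1496 (9.5%), 600 higher (3.81%) and 896 lower (5.69%). The 24 genes were chosen by let-7d minus let-7e in these same libraries. That choice favours a fall against control with the mimic that was lower. The comparisons also share the control libraries, so these counts are set side by side and no agreement between them is read.

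**Figure D3:**
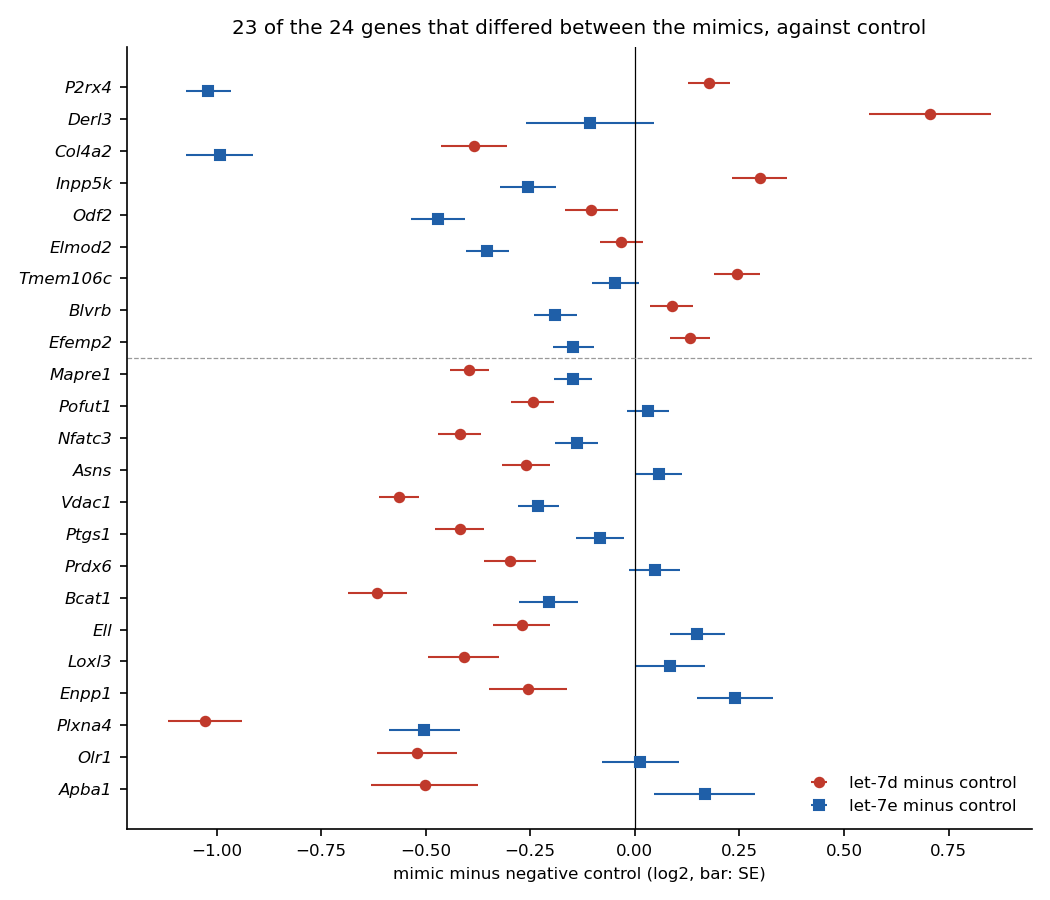
Log2 difference from control with let-7d (red circles) and let-7e (blue squares) for 23 of the 24 genes, with bars of 1 SE, ordered by let-7d minus let-7e, and a dashed line between the 9 plotted genes higher with let-7d and the 14 higher with let-7e. In the upper block P2rx4 and Col4a2 lie near -1 with let-7e, and in the lower block Plxna4 lies at -1.03 with let-7d and -0.50 with let-7e.

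Most genes with extended pairing to 1 of the mimics were not called. In coding sequence, 307 genes (2.27% of those searched) held at least 10 contiguous bases complementary to let-7e and fewer to let-7d. 3 of them (P2rx4, Inpp5k and Odf2) were called higher with let-7d and 0 the other way, and the median difference was -0.0044. At 11 bases or more there were 72 genes with 2 called and a median of 0.011. At 12 or more there were 20 genes with 1 called and a median of 0.030. At an unadjusted p under 0.05, 21 of the 307 genes were higher with let-7d and 14 lower. For the 72 these counts were 7 and 1, and for the 20 they were 4 and 1, called genes included. Over all genes tested 4.14% were higher and 5.17% lower at that threshold. For let-7d, 153 coding sequences (1.13%) had at least 10 bases and fewer with let-7e, of which Ell was called, higher with let-7e. Their median was -0.018, with 3 genes higher with let-7d and 10 lower at an unadjusted p under 0.05. The 24 genes were known when these stretches were looked for, so the counts describe them and test nothing. The share called among all genes searched was 0.177%.

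Many genes with stretches as long were not called. In the coding sequence of Sec63, a translocation factor of the endoplasmic reticulum, 13 bases pair with let-7d, and its difference was -0.21 (edgeR adjusted p = 0.132). Inhba, the activin A subunit, has the longest 3′ UTR stretch for let-7d, 14 bases opposite mimic bases 9 to 22 and so without the seed, and its difference was -0.33 (edgeR adjusted p = 0.168). Nme4, a mitochondrial nucleoside diphosphate kinase, has 13 bases with let-7d in its 3′ UTR including the seed match, as does Apba1, and differed by -0.07.
Sec63, coding sequence: cgtgatccccgccACCTACTACCTCT
Nme4, 3′ UTR: aggtctacccatgACCTACTACCTCT
Sumf2, 3′ UTR: ctcgaactctcgatCCTCCTACCTCA
Pmpca, coding sequence: gatgtacaatgCAACCTCCTACCacc
These are printed beside the 5 above because they are as long and did not pass the test. Capitals again mark the contiguous complement, with let-7d in Sec63 (chr10:42761842-42761867) and Nme4 (chr17:26091978-26092003) and with let-7e in Sumf2 (chr5:129863164-129863189) and Pmpca (chr2:26393306-26393331). Sumf2, related to the sulfatase-modifying factors, pairs with let-7e at 18 of 22 positions in its 3′ UTR, and its difference was 0.00. Pmpca, a subunit of the mitochondrial processing peptidase, differed by 0.26 (edgeR adjusted p = 0.123). Dicer1, which cuts microRNA precursors, was 1 of the 3 genes with at least 18 positions paired with let-7e, and fewer with let-7d, in coding sequence, beside P2rx4 and Odf2. Its coding sequence pairs at up to 18 positions with let-7e and 17 with let-7d, and holds 4 CTACCTC. Dicer1 differed by -0.07 between the mimics (edgeR adjusted p = 0.779). Against control it fell with both, by 0.52 with let-7d and by 0.45 with let-7e.

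**Figure D4:**
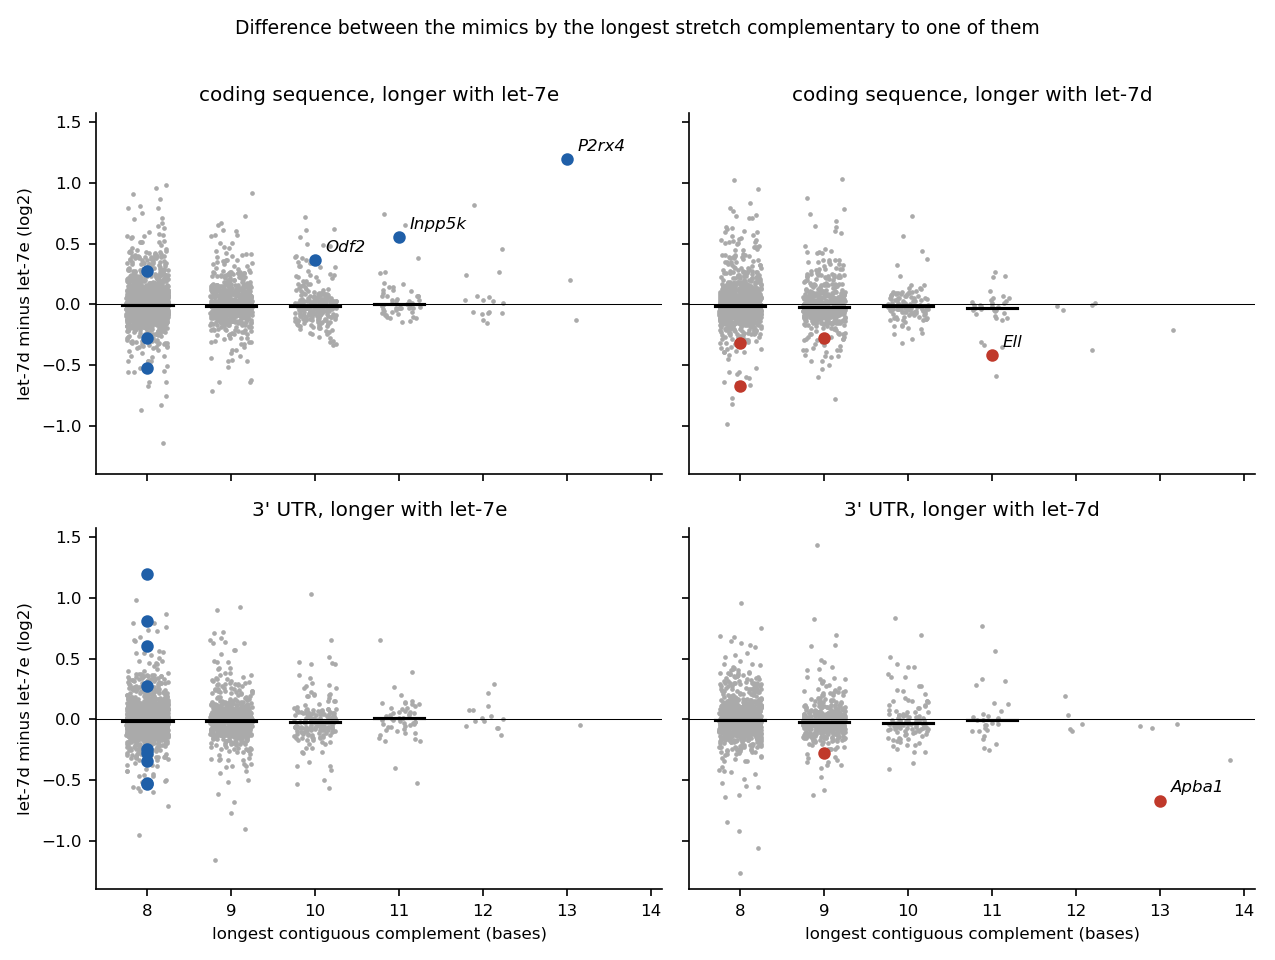
Let-7d minus let-7e (log2) of each gene against its longest contiguous complement of 1 mimic, for genes in which it is longer with that mimic than with the other and at least 8 bases, in coding sequence (top) and 3′ UTR (bottom), with called genes in colour (blue in the let-7e panels, red in the let-7d panels), a black bar at the median where at least 20 genes share a length, and sideways jitter of the grey points. A gene can appear in more than 1 panel, the medians stay near 0 up to 11 bases, and P2rx4 at 13 bases and Apba1 at 13 bases lie at opposite ends.

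Genes that match the shared seed had medians slightly below 0, the side of lower levels with let-7d. Of 13547 genes with an annotated 3′ UTR, 1427 (10.5%) hold CTACCTC on the transcript strand, and their median let-7d minus let-7e difference was -0.021 against -0.0031 for the 11245 with neither CTACCTC nor TACCTCA. Against control the medians of the 1427 were -0.080 with let-7d and -0.058 with let-7e. Between the mimics 5 of the 1427 were called, all higher with let-7e, beside 15 of the 13547 (0.111%) and 9 of the 11245 called in that direction. The 508 genes with the overlapping 8-base match CTACCTCA (3.75%) had a median of -0.029, as had the 875 with TACCTCA alone (6.46%). For the 1864 genes (13.8%) with CTACCTC in the coding sequence it was -0.020, with 2 called higher with let-7d and 1 with let-7e.

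Per library, the shift was taken as the median of genes with CTACCTC in the 3′ UTR minus that of genes without a site, relative to the controls of the same run (1180 and 9121 genes). It was -0.061 and -0.080 with let-7d in run 1 and -0.101 and -0.077 in run 2. With let-7e it was -0.053 and -0.053 in run 1 and -0.087 and -0.072 in run 2. The let-7d libraries were lower in run 1, and in run 2 the groups overlapped. Control libraries lay within 0.019 of their run's mean.

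The base of the message facing mimic position 9 did not order the classes by mimic. That base pairs with let-7d in ACTACCTC and with let-7e in CCTACCTC. The medians were -0.014 over 270 genes (1.99%) with ACTACCTC and -0.020 over 523 genes (3.86%) with CCTACCTC, and both were negative. They were -0.011 over 259 genes with GCTACCTC and -0.030 over 516 genes with TCTACCTC. 2 genes of the first class and 3 of the last were called higher with let-7e, and 0 in the other classes. In the 31 and 36 genes whose site had upstream matches to bases 13 to 16 of let-7d alone or let-7e alone, 0 genes were called, with medians of -0.015 and -0.025.

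Genes long known as let-7 targets had a median slightly lower with let-7d, and none passed the test. Of 58 such genes tested, 0 were called between the mimics, 13 had an unadjusted p under 0.05 and all 13 were lower with let-7d, beside 653 higher (4.14%) and 814 lower (5.17%) in the whole table. Other lists leaned the same way, as given below. Their median was -0.07 (-0.08 in each run), and 54 of the 58 had a 95% interval within 0.5. Against control 26 of the 58 were called lower with let-7d (9.81% over all genes) and 14 with let-7e (5.69% over all genes), with medians of -0.19 and -0.11.

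Hmga2, a chromatin protein and classic let-7 target, was at 6.6, 7.7, 14.3 and 16.6 CPM with let-7d and at 7.7, 9.1, 18.6 and 18.6 CPM with let-7e in replicates 1 to 4. The let-7d values were the lower in both runs apart from a near tie in run 1, and the difference of -0.25 did not pass (edgeR adjusted p = 0.448). Against control Hmga2 fell by 0.84 with let-7d and by 0.59 with let-7e on the log2 scale. Dicer1 was at 44.5, 43.6, 27.2 and 30.3 CPM with let-7d and at 48.8, 47.0, 29.1 and 29.0 CPM with let-7e. Its values overlapped in run 2.

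Nras, a Ras GTPase, differed by -0.08, E2f6, a repressor of the E2F family, by -0.05, and Igf1r, the IGF1 receptor, by -0.14. None of them passed (edgeR adjusted p = 0.647, 0.878 and 0.474). Dusp4, a phosphatase of MAP kinases, had the smallest p of the list, and its difference was -0.27 (edgeR adjusted p = 0.206). Of 19 genes of the microRNA machinery, 0 were called, with a median of -0.04. Ago2, the Argonaute that can cut its targets, differed by -0.16 (edgeR adjusted p = 0.503).

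Vdac1 was the called gene of the mitochondrion's outer membrane, and it was in none of the lists. In the mitochondrial lists 0 genes were called. 0 of 36 complex I genes were called, with a median of 0.02, and the interval of each lay within 0.5. The same held for complexes II and III (14 genes, median -0.03), complex IV (14 genes, 0.02), ATP synthase (15 genes, 0.02) and messages of the mitochondrial genome (7 genes, 0.03, with 0.12 in run 1 and -0.07 in run 2). The 79 genes of the mitochondrial ribosome ran from -0.10 to 0.17 with a median of -0.0010. The citric acid cycle (25 genes), fatty acid oxidation (23 genes) and mitochondrial biogenesis and dynamics (26 genes) had medians of 0.01, -0.01 and -0.02. In the citric acid cycle list 3 genes had an unadjusted p under 0.05, all lower with let-7d (5.17% over all genes), and differences reached -0.28.

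No gene of the adipocyte and lipid lists passed. Of 23 identity genes 0 were called and the median was 0.02. Cidec, which joins lipid droplets, came nearest, at -0.47 (edgeR adjusted p = 0.0791), with -0.20 in run 1 and -0.75 in run 2, a change between runs that was not called (edgeR interaction adjusted p = 0.868). Fat synthesis (20 genes) had a median of -0.04 in run 1 and -0.21 in run 2, lipolysis and lipid droplets (19 genes) -0.01 and -0.19, and glycolysis (19 genes) -0.03 and -0.23. These run medians were not tested against each other. Thermogenic genes (15 tested, median 0.01), insulin signalling (28, -0.03) and cholesterol synthesis (24, -0.07) had 0 called. At an unadjusted p under 0.05, 4 genes of fat synthesis, 6 of lipolysis and lipid droplets, 5 of insulin signalling and 5 of cholesterol synthesis were lower with let-7d and 0 were higher. Over all genes 5.17% were lower and 4.14% higher at that threshold.

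Among stress and matrix lists, 3 genes passed. Asns was the called member of the ATF4 response, the programme of amino acid shortage, in which 7 of 24 genes had an unadjusted p under 0.05, all 7 lower with let-7d (5.17% over all genes), and the median was -0.12. Prdx6 was called among 23 antioxidant genes (median -0.02). In the same list Gstm1, a glutathione transferase, was higher with let-7d by 0.32 and missed the threshold (edgeR adjusted p = 0.0563). Col4a2 was called among 40 extracellular matrix genes. At an unadjusted p under 0.05, 5 of them were higher with let-7d (4.14% over all genes) and 11 lower (5.17% over all genes). The list's median was -0.06, with -0.14 in run 1 and 0.02 in run 2. Col4a2 thus went against the list's median in run 1 and not in run 2.

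Matrix proteases and their inhibitors (19 genes, median 0.01), p53 targets (20, -0.02), endoplasmic reticulum chaperones (18, -0.04) and the cell cycle (38, -0.0036) had 0 called. In runs 1 and 2 the medians were -0.10 and 0.13 for the proteases and -0.05 and -0.03 for p53 targets. They were 0.06 and -0.10 for the chaperones and 0.08 and -0.07 for the cell cycle. At an unadjusted p under 0.05, 5 protease genes were lower with let-7d and 2 higher, and 5 p53 targets were lower and 1 higher. Over all genes 5.17% were lower and 4.14% higher. Interferon response genes (30 tested) had a median of -0.19 with 0 called and 0 at an unadjusted p under 0.05. The list summed to 4576 CPM in let-7e replicate 3 and to between 3429 and 3619 CPM in the other mimic libraries of run 2. The controls of run 2 were at 4427 and 3704 CPM. Chemokines and inflammatory cytokines (25 genes) had a median of -0.08 and 0 called. Their member with the smallest p was Ptgs2, or COX-2, at -0.45 in both runs (edgeR adjusted p = 0.116).

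Markers of other cell types that the stromal vascular fraction can hold did not pass between the mimics. 18 macrophage markers had a median of 0.38, with 0 at an unadjusted p under 0.05. The sum was 208 CPM in let-7d replicate 3 against 90 CPM in let-7d replicate 4 and 81 and 109 CPM with let-7e in the same run. Without let-7d replicate 3 the median was 0.03. Preadipocyte and fibroblast markers (10 genes) had a median of 0.19, with 3 at an unadjusted p under 0.05, all higher with let-7d (4.14% over all genes). Endothelial (8 genes), mesothelial (7 genes) and smooth muscle and pericyte markers (10 genes) had medians of 0.07, -0.05 and 0.05. 1 of 4 markers of the epididymis epithelium was tested, at -0.40, and its list summed to at most 14.6 CPM. None of the 8 lymphocyte markers looked for was among the genes tested.

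**Figure D5:**
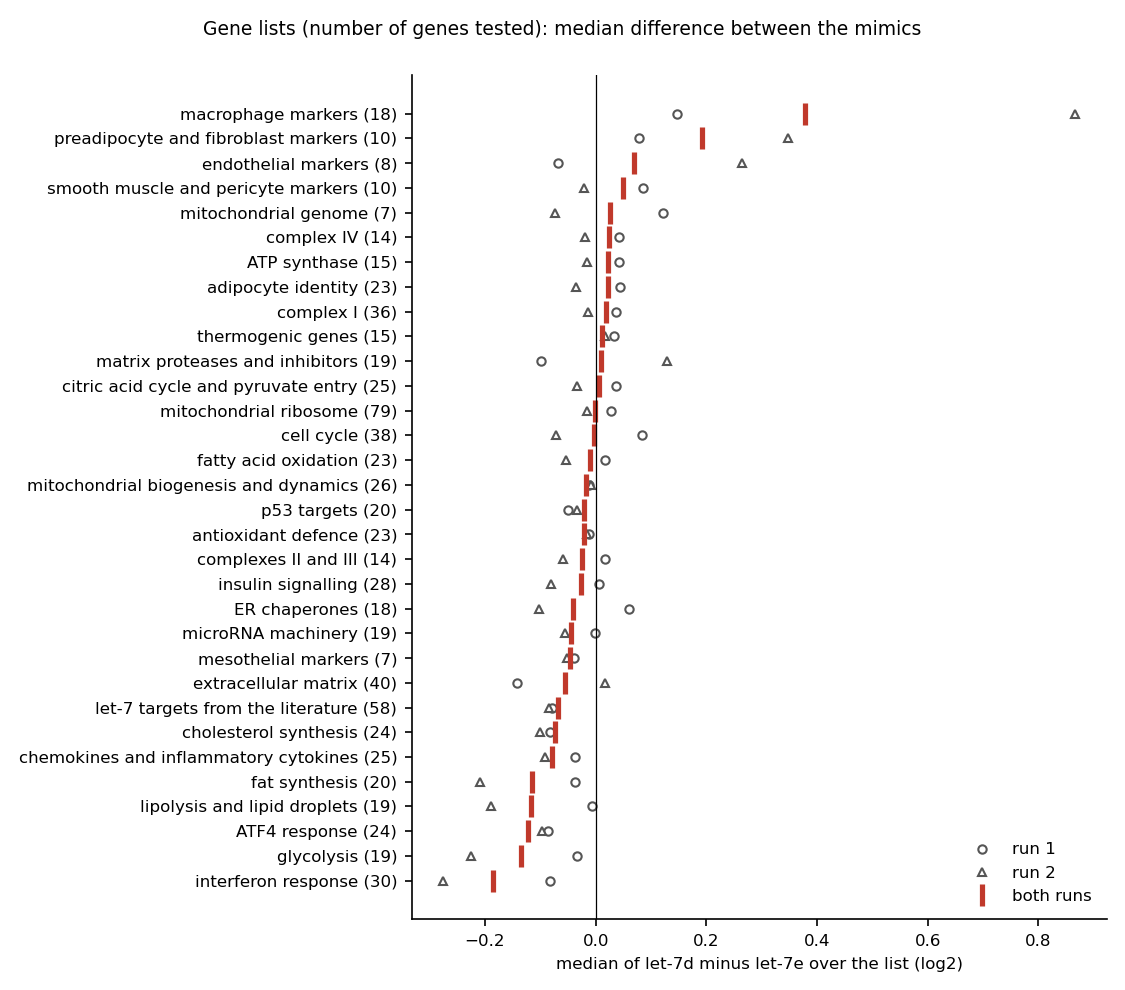
Median let-7d minus let-7e difference (log2) over each list with at least 5 genes tested, with the number tested in brackets, in run 1 (circles), run 2 (triangles) and both runs (red bars). Macrophage markers reach 0.87 in run 2, interferon, lipid and glycolysis lists lie further below 0 in run 2 than in run 1, and mitochondrial lists lie close to 0.

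3 genes beside P2rx4 differed by more than 1 on the log2 scale where log2 CPM averaged 2 or more, and they did not pass. They were looked up after their values were seen. Grem1, a secreted antagonist of bone morphogenetic proteins, differed by -1.16 ± 0.244 (SE, edgeR adjusted p = 0.0876). Its levels were 2.19, 3.72, 4.35 and 6.98 CPM with let-7d and 4.35, 7.22, 18.9 and 9.05 CPM with let-7e. Cyp2e1, a cytochrome P450, differed by 1.33 ± 0.291 (SE, edgeR adjusted p = 0.106), and let-7e replicate 4 at 11.4 CPM overlapped the let-7d libraries, which ran from 8.30 to 19.1 CPM. The chemokine Ccl5 differed by -1.04, and its 90.2 CPM in let-7e replicate 3 set it apart from 31.2 CPM in let-7e replicate 4.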

How the data were processed

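RNA-seq libraries of 3 groups were compared, 4 per group. The deposited table holds counts per Ensembl gene, whole numbers and not normalized by the authors. The submitters' processing notes name STAR and GRCm38.p6. How reads were counted, by strand or not, and what was done with multiply mapped reads is not given in the sources used here, so overlapping genes and near-identical copies cannot be told apart. Genes with low CPM were removed before deposit, per the file's name. A second deposited table, named RPKM, implied lengths that differed between libraries for the same gene and was not used.

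All 12 libraries were fitted in R 4.3.3 with edgeR 4.0.16 (TMM scaling, quasi-likelihood test, two-sided, terms for group and identifier run, 8 residual degrees of freedom). filterByExpr removed no gene. Adjusted p-values follow Benjamini and Hochberg over all genes, with a threshold of 0.05. CPM are TMM-scaled. Intervals at 95% use the fit's standard error and degrees of freedom. Library totals ran from 15071299 to 33396316, and pairs of libraries of a group and run differed beyond counting noise (chi-square per degree of freedom 2.37 to 10.2). The script was tested on simulated data. There it called 49.3% of the genes changed by 0.3 on the log2 scale and 91% of those changed by 0.5. Unchanged genes made up 8.62% of its calls.

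Of 15754 identifiers, 15742 matched GENCODE vM21 without the version. Sites were sought on the transcript strand, taking for each gene the protein-coding transcript whose 3′ UTR is longest. Named genes were, among called genes, up to 12 each way whose log2 CPM averaged 2 or more and whose groups did not overlap in either run, the called or best members of 33 gene lists, and Dicer1, Hmga2, Nras, Igf1r, E2f6 and P2rx4. 1 called gene is counted but not reported here by name. Members and lists were chosen with earlier results of these data known. Alternatives changed the scaling, the test (DESeq2 1.42.0, limma-voom 3.58.1), the filter, the libraries, the run term, the block and the transcript. The study's text gives n=6, and 4 libraries per group are listed.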

Additional observations from a re-analysis of the deposited data

Results flagged for a closer look

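Loxl3 in let-7e replicate 3 stood apart from the other libraries of its group, at 194 CPM against 134 to 143 CPM in the other 3. The gap took up most of the group's range. 273 groups of 4 libraries were looked at, and chance flags about 1 in 20 groups. Without that library the Loxl3 difference was -0.38 on the log2 scale (edgeR adjusted p = 0.103). No gene's difference between the mimics was called to differ between the runs.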

How the results depend on the processing

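P2rx4, Col4a2 and Inpp5k were called with any library left out, and P2rx4 in each alternative as well. No value changed direction among those called. The genes called higher with let-7d and with let-7e numbered 40 and 82 with DESeq2 (122 in all, including the 24), 35 and 63 in the 8 mimic libraries alone (98, including the 24), 1 and 0 (1) without the run term, 2 and 0 (2) in run 1 alone and 1 and 0 (1) in run 2 alone. Leaving out 1 library gave 3 to 15 higher and 0 to 26 lower, 3 to 38 in all. These fits leave a group with 1 library in a run, which is assumed to vary like the others. Without the run term, 4775 genes had an interval within 0.5. Against control, let-7d was called at 7 genes without the run term and 740 in run 2 (1781 to 2535 with a library left out), and let-7e at 0, 197 and 844 to 1606. Genes whose mimic difference differed between runs numbered 2 with DESeq2, 1 in the 8 libraries and 0 to 6 with a library left out (6 without let-7e replicate 4). With upper-quartile scaling the medians were 0.0083 over all genes with a 3′ UTR, 0.0116 without a site and -0.0141 for TACCTCA alone. The CTACCTCA median was -0.0110 in run 2 alone, and that of GCTACCTC ran from -0.0265 to -0.0044 with a library left out. The causes were not tested.

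Whether replicate numbers pair the samples is not stated, and the main fit did not pair by them. Within a run, deviations of same-numbered libraries of 2 groups correlated between -0.16 and 0.43. Over both runs 9 of 12 libraries matched their own number best, a hint from the data and not the design. With the replicate number as a block, 5 genes were called, 3 higher with let-7d (P2rx4, Col4a2 and Inpp5k) and 2 with let-7e (Ell and Vdac1).

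Among the 24, Derl3 and Apba1 had the lowest average levels and SEs of 0.143 and 0.125, against a median of 0.084 over all genes.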
